A study of Mus musculus with 11 samples.

Results

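The perineuronal net and lectican genes described here are 10 genes chosen by symbol: the lecticans Ncan, Bcan, Acan and Vcan, the link proteins Hapln1, Hapln2 and Hapln4, tenascin-R (Tnr), and the hyaluronan synthases Has2 and Has3. Each symbol matched 1 of the 53465 gene identifiers in the count files. RNA had been sequenced from medial prefrontal cortex (mPFC) cells of adult male CRF1:GFP mice, a reporter line in which GFP marks cells that express the corticotropin releasing factor receptor 1. Live GFP-positive cells were collected by fluorescence-activated cell sorting, and each library held the sorted cells of 1 mouse, so that n counts mice. The 5 withdrawn mice had breathed ethanol vapor intermittently for 5 to 6 weeks, with injections of ethanol and the alcohol dehydrogenase inhibitor pyrazole, and were then 5 to 8 days into forced abstinence. The 6 naïve mice carried the same reporter and received pyrazole and air. All mice were at least 10 weeks old, and the sort holds whatever cells carried GFP at the time.

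A perineuronal net is a lattice of extracellular matrix around the cell body and proximal dendrites of some neurons. Hyaluronan synthases at the membrane extrude hyaluronan chains, lecticans, which are chondroitin sulfate proteoglycans, bind to these chains at one end, link proteins lock that binding, and tenascin-R crosslinks the other end of the lecticans. In cortex the densest nets surround parvalbumin interneurons, while looser matrix of the same components surrounds excitatory neurons and synapses, and several of the genes are also made by astrocytes, oligodendrocytes and their precursors.

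The sorted cells carried the transcripts of excitatory neurons, those of interneurons at levels that varied between mice, and few of parvalbumin interneurons. Crhr1, which encodes the receptor, lay between 42.2 and 136 CPM (a gene's counts relative to all counts of its library, on library sizes normalized by the TMM method) over the 11 mice. Slc17a7, the vesicular glutamate transporter of cortical excitatory neurons, lay between 738 and 1928 CPM, and Gad2, a GABA-synthesizing enzyme, between 7.52 and 130.1 CPM. Pvalb, the parvalbumin gene, did not exceed 2.83 CPM and was at 0 counts in 2 mice. Sst, the somatostatin gene of another interneuron class, had 247 ± 293 CPM in naïve and 6.53 ± 14.6 CPM in withdrawn mice (edgeR unadjusted p = 0.0221, adjusted p = 0.545). Vip reached 89.6 CPM in naïve and 259 CPM in withdrawn mice. Of 8 interneuron markers, 6 were above 0 in log2 fold change and 2, Sst and Lhx6, below, beside 51.8% above 0 over all tested genes. Sst alone among them had an unadjusted p under 0.05 in edgeR. Over 8 interneuron markers the sum ranged from 73.3 to 944 CPM in naïve and from 30.04 to 730.5 CPM in withdrawn mice, and the part of these cells in the results was not tested. Depth ranged from 7351567 to 22244869 counts on genes, so that 3 counts, taken as the floor of detection, corresponded to 0.135 to 0.408 CPM. Such floors cover counting error only. Per the study's methods the libraries were made from picogram amounts of RNA amplified by PCR. Loss or uneven amplification at these steps is not covered, and its part in values of 0 and in single high mice was not tested. There were 3 libraries that stood apart. Naïve mouse 5 had the fewest genes with a count (15585) and no count for all 7 oligodendrocyte precursor markers, and withdrawn mouse 2 had 18.4 CPM summed over 8 fibroblast markers against 225 to 1318 CPM in the other withdrawn mice, a value within the naïve range. Withdrawn mouse 4 had the lowest depth, the largest share of reads outside annotated genes (48.1%) and the lowest Crhr1 and Slc17a7. For 3 of the 5 withdrawn mice, numbers 3, 4 and 5, the source name conflicts with the treatment label by naming a control, and the stated design has 5 control and 6 ethanol mice. Without these mice edgeR tested 9 of the 10 genes and called none, and the log2 fold changes are given after the description of each gene.

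Neurocan was the main lectican and Hapln4 the main link protein in every mouse, and both belong to the same stretch of chromosome. On the scale of CPM per kilobase of merged exon, the means over 11 mice were 28.9 ± 12.4 (SD) for Hapln4, 21.1 ± 12.6 for Ncan, 5.01 ± 1.75 for Tnr and 2.88 ± 2.75 for Bcan. The remaining levels were 0.663 ± 0.801 for Hapln2, 0.442 ± 0.643 for Hapln1, 0.159 ± 0.234 for Vcan, 0.130 ± 0.154 for Acan, 0.0785 ± 0.199 for Has2 and 0.0732 ± 0.120 for Has3. Hapln4 exceeded 88.0% and Ncan 84.0% of the genes that passed the low-count filter in mean level per kilobase, whereas Acan exceeded 0.456%. Neighbours in this order were seldom separated by more than their spread. Hapln4 was above Ncan in 8 of 11 mice, Tnr above Bcan in 8 and Vcan above Acan in 5, and the step from Ncan to Tnr alone, a mean fold of 4.20, held in 11 of 11 mice.

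**Figure D1:**
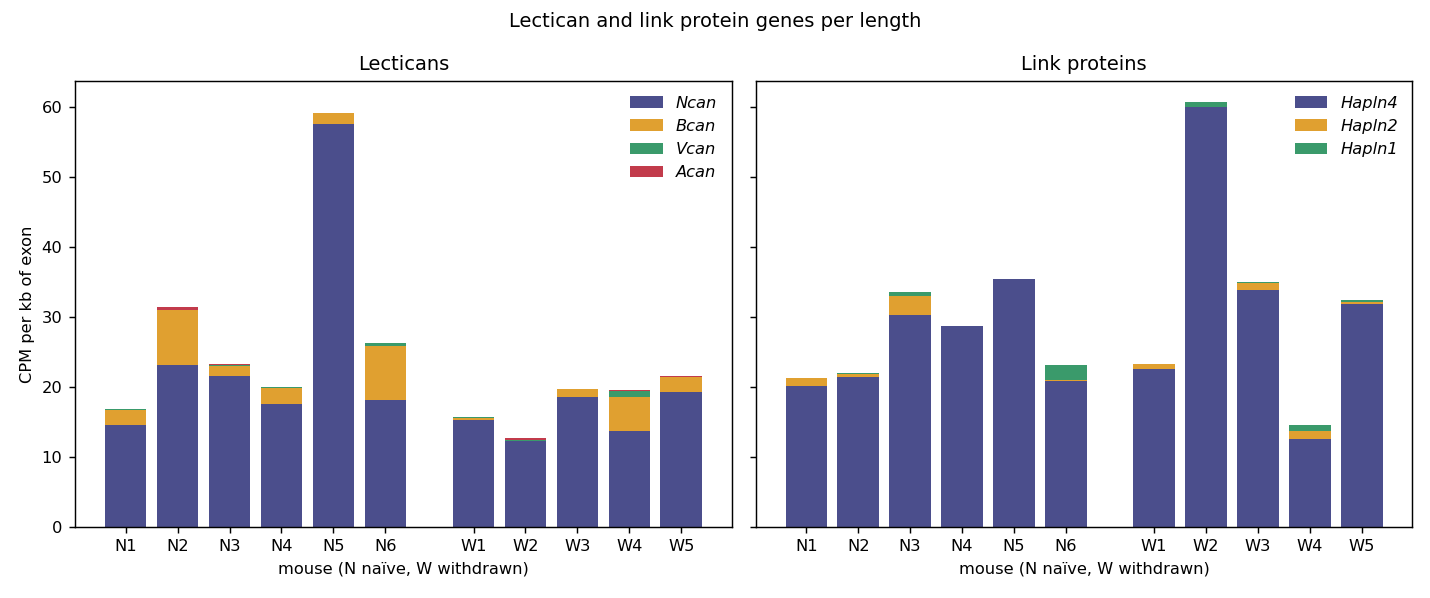
Levels of the lectican genes (left) and of the link protein genes Hapln4, Hapln2 and Hapln1 (right) in each mouse, stacked, in CPM per kilobase of exon, with N for naïve and W for withdrawn mice and the mouse number. Ncan fills between 68.8% and 97.4% of the lectican bars, Hapln4 between 86.4% and 100% of the link protein bars, and naïve mouse 5 and withdrawn mouse 2 have the tallest bar on the left and on the right.

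Each lectican gene has a link protein gene as its neighbour. In the GENCODE M21 annotation of GRCm38, Ncan (ENSMUSG00000002341, chr8:70093085-70120873, minus strand) lay 2222 bases from Hapln4 (ENSMUSG00000007594, chr8:70083457-70090862, plus strand). Bcan (ENSMUSG00000004892, chr3:87987531-88000230, minus strand) lay 21519 bases from Hapln2 (ENSMUSG00000004894, chr3:88021750-88027583, minus strand), and Vcan (ENSMUSG00000021614, chr13:89655312-89742509, minus strand) lay 43659 bases from Hapln1 (ENSMUSG00000021613, chr13:89539796-89611652, plus strand). Acan (ENSMUSG00000030607, chr7:79053483-79115099, plus strand) ended 2 bases from Hapln3, a link protein gene outside the 10. No protein-coding gene lay between the partners of any pair. The pair with the highest levels per kilobase was Ncan with Hapln4, followed by Bcan with Hapln2, and the members of a pair did not keep a fixed ratio. Hapln4 over Ncan per kilobase ranged from 0.614 to 4.87 among the 11 mice, with a median of 1.27 in naïve and 1.66 in withdrawn mice.

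The 250 bases before the RefSeq start of the lectican with the highest level, Ncan, and of Acan, with the lowest, are shown to set the regulatory sequence of both ends of the range side by side. They come from RefSeq on GRCm38.p6, chr8:70120845-70121094 on the minus strand for Ncan and chr7:79052976-79053225 on the plus strand for Acan, and the capitals mark CG dinucleotides.
Ncan: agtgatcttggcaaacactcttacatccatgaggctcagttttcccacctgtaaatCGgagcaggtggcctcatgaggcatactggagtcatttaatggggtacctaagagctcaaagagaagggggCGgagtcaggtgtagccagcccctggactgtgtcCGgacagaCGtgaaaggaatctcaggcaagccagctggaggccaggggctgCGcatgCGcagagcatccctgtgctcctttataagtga
Acan: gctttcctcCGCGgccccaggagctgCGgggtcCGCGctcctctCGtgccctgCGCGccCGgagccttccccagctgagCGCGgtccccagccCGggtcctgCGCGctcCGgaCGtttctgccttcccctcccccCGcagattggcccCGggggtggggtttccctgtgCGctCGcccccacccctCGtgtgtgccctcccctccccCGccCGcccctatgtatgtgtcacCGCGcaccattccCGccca
The Ncan sequence held 6 CG dinucleotides, which is the median over the 32851 RefSeq promoters of the same length, and the Acan sequence held 26, a number reached by 9.59% of them. Bcan held 16 and Vcan 10, and Hapln1, Hapln2 and Tnr held 2 each. The letters TATAAA, searched on both strands and present in 12.4% of all promoters, occurred once in Ncan and in none of the other 6. The letters GGGCGG, present in 32.7%, occurred 3 times in Acan, 2 times in Vcan and once each in Ncan and Bcan, and CANNTG, present in 66.2%, occurred 4 times in Ncan, once each in Acan, Vcan and Hapln2 and not in Bcan. The reference table held no entry for Hapln4, Has2 or Has3.

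To ask whether withdrawal from chronic ethanol altered these genes, the groups were set against each other with edgeR's quasi-likelihood test over all genes. None of the 10 genes was called, that is, none passed an adjusted p of 0.05 with a log2 fold change beyond 0.6. The filter on low counts left 8 of them in the test, Has2 and Has3 being too low. None of the 8 had an unadjusted p under 0.05 in edgeR, and DESeq2 called none of the 9 to which it gave an adjusted p, Has2 having none. Over all 17093 tested genes, edgeR called 1 (0.00585%), which was Ptgdr, and 7.22% had an unadjusted p under 0.05, while DESeq2 called 362 of the 21849 genes with an adjusted p (1.66%). The log2 fold change was above 0 for 4 of the 8 genes and below 0 for 4, with a median of −0.08, beside 51.8% above 0 and a median of 0.02 over all tested genes. By the difference in log2 CPM, 5 of the 8 were above 0 and 3 below, since Vcan, Hapln1 and Hapln2 changed side. The groups overlapped for each of the 10, and 0.948% of all tested genes had groups that did not overlap. In sorted bulk RNA of this kind, fewer cells of a type and less RNA per cell cannot be told apart.

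**Figure D2:**
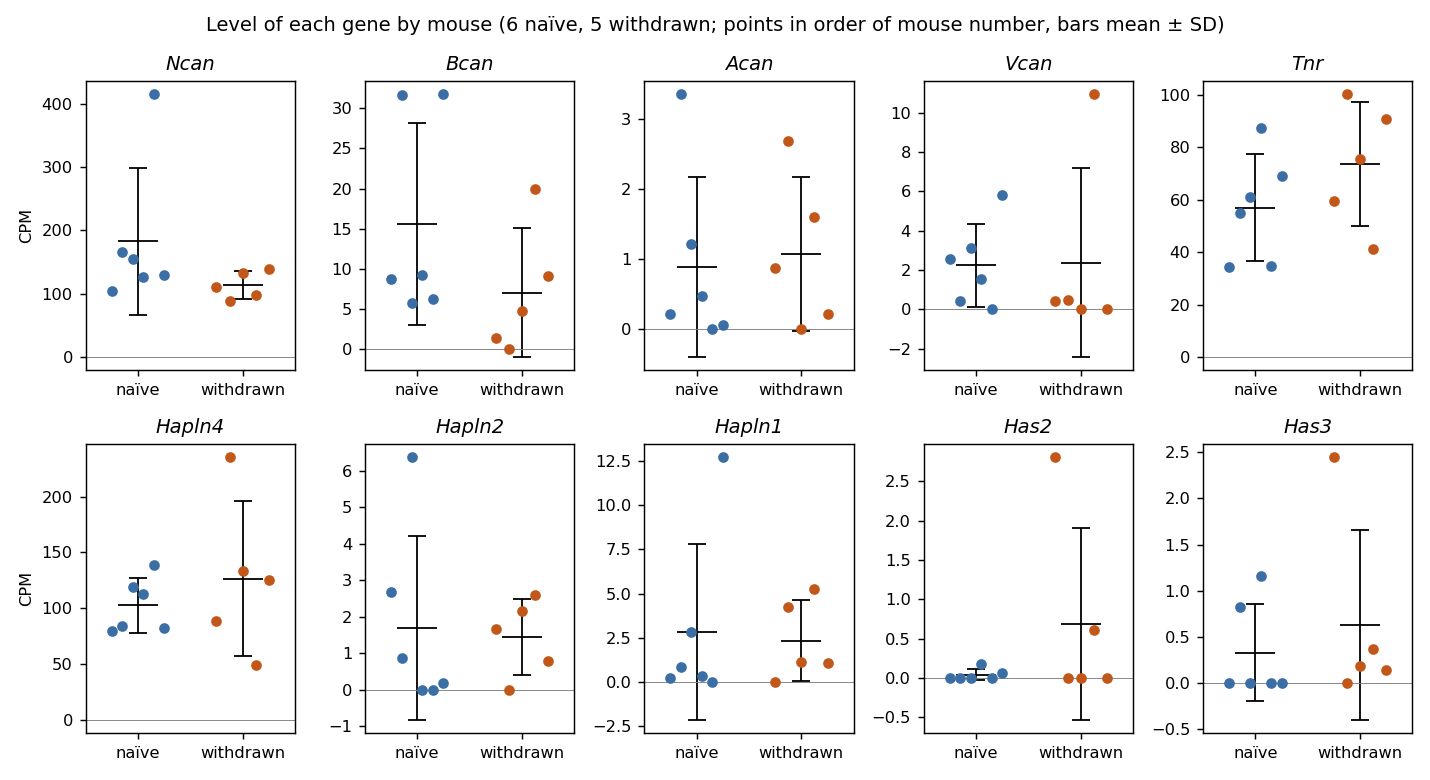
Level in CPM of each of the 10 genes in each mouse (points, blue naïve and orange withdrawn, in order of mouse number) with the group mean and SD (black). The groups overlap in every panel, and the highest point is a single mouse in Ncan (415 CPM), Vcan (10.9 CPM), Hapln1 (12.7 CPM) and Hapln4 (236 CPM).

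Neurocan, the lectican best known from the juvenile brain and made by neurons and glia, had 105, 167, 155, 126, 415 and 130 CPM in naïve mice 1 to 6 and 110, 88.6, 133, 98.6 and 139 CPM in withdrawn mice 1 to 5. Naïve mouse 5 stood alone at more than any other mouse, and 2 withdrawn mice, 2 and 4, lay below the lowest naïve mouse. The mean was 183 ± 116 CPM (SD, n = 6) against 114 ± 21.7 CPM (n = 5). The log2 fold change of −0.68 ± 0.32 (SE; 95% interval −1.37 to 0.00107) missed the threshold in edgeR (adjusted p = 0.693, unadjusted p = 0.0503), and the difference in log2 CPM was −0.53 with a two-sided exact permutation p of 0.104. Without naïve mouse 5 the log2 fold change was −0.25 ± 0.18 (edgeR adjusted p = 0.821). The lower mean of Ncan in withdrawn mice therefore rested largely on that mouse.

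Brevican, the lectican of adult nets that astrocytes also release, had 8.81, 31.7, 5.81, 9.20, 6.23 and 31.7 CPM in naïve mice and 1.44, 0, 4.76, 19.9 and 9.13 CPM in withdrawn mice. Withdrawn mice 1, 2 and 3 lay below the lowest naïve mouse, and withdrawn mice 4 and 5 lay within the naïve range. The group means were 15.6 ± 12.6 and 7.05 ± 8.00 CPM, and the log2 fold change of −1.15 ± 0.94 (95% interval −3.18 to 0.88) had an adjusted p of 0.868 in edgeR and an exact permutation p of 0.0974 on log2 CPM. With each mouse left out it ranged from −2.002, without withdrawn mouse 4, to −0.81, without naïve mouse 6. In log2 CPM the difference was −2.06 with all mice and −0.98 without withdrawn mouse 2 (exact permutation p = 0.257). In edgeR the fold change on the log2 scale was −4.40 ± 1.43 without the 3 mice with conflicting labels, where the edgeR adjusted p was 0.691 and the exact permutation p 0.0357. That exact p is the smallest that the mice left in this setting can give. Summed over 7 astrocyte markers, the mice with the highest Bcan, naïve 2 and 6 and withdrawn 4, had 181, 141 and 706 CPM, against 14.5 to 59.7 CPM in the other naïve mice. Withdrawn mouse 2, with no count for Bcan, had 13.9 CPM, and withdrawn mice 1 and 3, low in Bcan, had 670.2 and 436 CPM. The withdrawn sums came mostly from the gap junction genes Gja1 (187 ± 122 CPM, 15.3 ± 12.0 in naïve mice) and Gjb6 (186 ± 144 CPM, 9.01 ± 6.01 in naïve mice), while the means of Aqp4, Gfap, Slc1a3 and Aldh1l1 were lower in withdrawn than in naïve mice. Of this list edgeR called none and DESeq2 called Gjb6 (adjusted p = 0.0259), as it did 1.57% of its genes in the direction of higher in withdrawn mice. By the mean log2 CPM of the list, withdrawn mouse 1 (3.12) lay below naïve mice 2 (4.33) and 6 (4.07), and withdrawn mouse 4 (5.16) was the highest. The part of these cells in the Bcan values was not tested.

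Aggrecan, the lectican that defines the dense nets of parvalbumin interneurons, was near the floor. Acan had 0.215, 3.35, 1.22, 0.466, 0 and 0.0617 CPM in naïve mice and 0.864, 2.69, 0, 1.60 and 0.212 CPM in withdrawn mice, which came from 0 to 61 counts per mouse. Mouse 2 was the highest of each group, and the groups covered nearly the same range. The log2 fold change was 0.25 ± 1.31 (95% interval −2.57 to 3.07; edgeR adjusted p = 0.984), and it was −0.46 without withdrawn mouse 2. A change within that interval could not be told from none.

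Versican, the largest lectican and a product of oligodendrocyte precursors and vascular cells among others, had 2.58, 0.439, 3.09, 1.51, 0 and 5.80 CPM in naïve mice and 0.432, 0.448, 0, 10.9 and 0 CPM in withdrawn mice. Withdrawn mouse 4 held 92.6% of the CPM of its group, and the other 4 withdrawn mice, at 0.448 CPM or less, lay below 4 of the 6 naïve mice. The log2 fold change was 0.06 ± 1.51 (95% interval −3.17 to 3.30; edgeR adjusted p = 0.995) with all mice, beside a difference in log2 CPM of −1.21 (exact permutation p = 0.409), and −3.35 ± 1.60 (adjusted p = 0.997) without withdrawn mouse 4. Naïve mouse 6 and withdrawn mouse 4 led their groups in Vcan, in Hapln1 and in Bcan. The same 2 mice led their groups in the summed pericyte markers, with 165 and 170.3 CPM, and in the endothelial markers, with 747 and 593 CPM. Their part in these values was not tested.

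The link proteins differed in the same way between one abundant and other sparse members. Hapln4, also called Bral2, is the link protein of neurons with brevican-rich nets, and it had 79.2, 84.2, 119, 113, 139 and 81.9 CPM in naïve mice and 88.5, 236, 133, 49.3 and 125 CPM in withdrawn mice. Withdrawn mouse 2 lay above and withdrawn mouse 4 below the whole naïve range. The means were 103 ± 24.6 and 126 ± 69.5 CPM, and the log2 fold change was 0.30 ± 0.31 (95% interval −0.38 to 0.97; edgeR adjusted p = 0.908, exact permutation p = 0.695 on log2 CPM). Without withdrawn mouse 2 it was −0.057 ± 0.28 (adjusted p = 0.997).

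Hapln1, the link protein of aggrecan-rich cartilage and of dense nets, had 0.215, 0.879, 2.81, 0.349, 0 and 12.7 CPM in naïve mice and 0, 4.25, 1.12, 5.29 and 1.06 CPM in withdrawn mice. Naïve mouse 6 carried 74.9% of the CPM of its group. The log2 fold change of −0.28 ± 1.38 (edgeR adjusted p = 0.984) became 1.45 ± 1.34 (adjusted p = 0.901) without that mouse. Hapln2, also called Bral1, belongs to the matrix at the nodes of Ranvier of myelinated axons and had 2.69, 0.879, 6.37, 0, 0 and 0.185 CPM in naïve mice and 1.66, 0, 2.15, 2.58 and 0.778 CPM in withdrawn mice. Its log2 fold change was −0.22 ± 1.39 (edgeR adjusted p = 0.986) and became 0.96 ± 1.39 (adjusted p = 0.925) without naïve mouse 3. Leaving out a further mouse also turned each sign, to 0.0082 for Hapln1 without withdrawn mouse 1 and to 0.099 for Hapln2 without withdrawn mouse 2. The difference in log2 CPM had the opposite sign to the fold change with all mice, 0.48 for Hapln1 (exact permutation p = 0.706) and 0.61 for Hapln2 (exact permutation p = 0.667).

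Tenascin-R, the glycoprotein that crosslinks lecticans and is made mainly by oligodendrocytes and some neurons, had 34.5, 55.0, 61.1, 87.2, 34.8 and 69.1 CPM in naïve mice and 59.6, 100.3, 75.7, 41.3 and 90.8 CPM in withdrawn mice. Withdrawn mice 2 and 5 lay above the highest naïve mouse, and no withdrawn mouse lay below the lowest. The means were 57.0 ± 20.4 and 73.5 ± 23.7 CPM. The log2 fold change of 0.37 ± 0.29 (95% interval −0.24 to 0.98) had an adjusted p of 0.864 in edgeR and an exact permutation p of 0.249, and it stayed between 0.23 and 0.53 whichever mouse was left out. Tnr (ENSMUSG00000015829, chr1:159523769-159931729, plus strand) shares 443 of its 12867 exonic bases with Gm38039 on the other strand, and since it is not given in the sources used here whether counting used strand, reads from those bases cannot be assigned to either gene.

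The hyaluronan synthases were hardly detected. Has2 (ENSMUSG00000022367, chr15:56665627-56694539, minus strand), the main hyaluronan synthase of development, had 0, 0, 0, 3, 0 and 1 counts in naïve mice and 39, 0, 0, 5 and 0 counts in withdrawn mice, which is 2.81 CPM in withdrawn mouse 1. Has3 (ENSMUSG00000031910, chr8:106870242-106884566, plus strand), which makes shorter chains, had 0, 15, 0, 20, 0 and 0 counts in naïve mice and 34, 0, 4, 3 and 2 counts in withdrawn mice. Withdrawn mouse 1 was the highest mouse for both. Exact permutation tests on log2 CPM gave p = 0.303 for Has2 and p = 0.513 for Has3, and no fold is given because most libraries of each gene were at or near the floor of 3 counts. Both genes share exonic bases with a gene on the other strand, 182 of 4237 bases with Has2os for Has2 and 352 of 6380 with Chtf8 for Has3. Has1, the remaining synthase and not one of the 10, lay between 0 and 3.20 CPM.

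Without the 3 withdrawn mice with conflicting labels, which leaves 2 withdrawn mice, the log2 fold change was −0.93 ± 0.48 for Ncan, −2.38 ± 1.84 for Vcan and 0.93 ± 1.68 for Acan. It was 0.59 ± 0.34 for Hapln4, −0.51 ± 2.11 for Hapln1, −0.99 ± 2.28 for Hapln2 and 0.43 ± 0.38 for Tnr. With Bcan, given above, the edgeR adjusted p was between 0.691 and 0.980 for these 8 genes, and Vcan alone among them changed sign from the value with all mice.

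**Figure D3:**
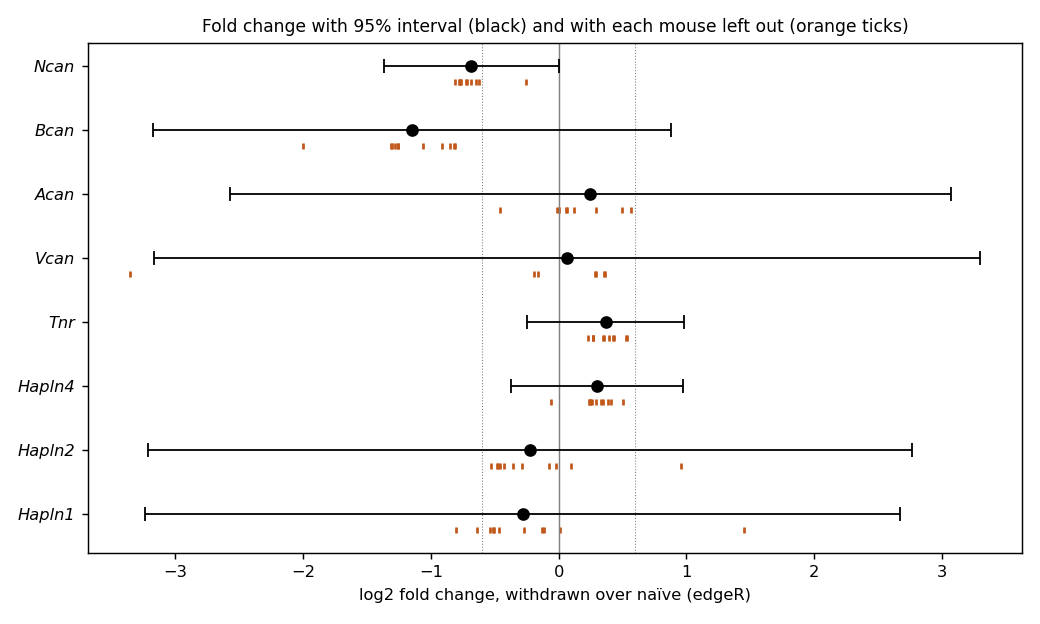
log2 fold change, withdrawn over naïve, of the 8 genes that passed the low-count filter, from edgeR's quasi-likelihood test (black point, 95% interval), with the value when 1 mouse was left out (orange ticks, 11 per gene except 9 for Acan and 7 for Vcan, which failed the filter in the other fits) and dotted lines at the threshold of 0.6. Each interval includes 0, the intervals of Acan, Vcan, Hapln1 and Hapln2 are several units wide, and 1 tick stands far from the rest for Ncan (−0.25), Bcan (−2.002), Vcan (−3.35), Hapln1 (1.45) and Hapln2 (0.96).

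The composition of the nets by transcript was also compared between groups. The 4 lecticans summed to 29.5 ± 15.4 CPM per kilobase in naïve mice and 17.9 ± 3.56 in withdrawn mice, with medians of 24.8 and 19.6 and naïve mouse 5 at 59.2. The 3 link proteins summed to 27.4 ± 6.14 and 33.2 ± 17.4 CPM per kilobase. Ncan held a mean of 84.3% ± 11.0 of the lectican sum in naïve mice and 89.5% ± 11.3 in withdrawn mice, Bcan 14.6% ± 10.6 and 8.73% ± 9.93, and Acan 0.440% ± 0.546 and 0.958% ± 1.14. Each of these shares overlapped between the groups.

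In 3 of the 10 genes, Ncan, Hapln4 and Tnr, every mouse had counts, and these 3 were set against 5 marker lists across the 11 mice, 15 pairs in all. Hapln4 was lower where the astrocyte list was higher (Pearson r = −0.80, permutation p = 0.00253, adjusted p = 0.0379; Spearman rho = −0.78, permutation p = 0.00624, adjusted p = 0.0936). Without the mice farthest from the median of the list, naïve mouse 5 and withdrawn mouse 2, r was −0.75 (permutation p = 0.0183). On deviations from the group means r was −0.85 (permutation p = 0.00025, adjusted p = 0.00375). The adjusted p was 0.0588 with a prior count of 0.5 in place of 2, and 0.119 without the 3 mice with conflicting labels. None of the other 14 pairs passed an adjusted p of 0.05 on either scale. On the levels themselves the nearest was Tnr with the oligodendrocyte list (r = 0.68, permutation p = 0.0173, adjusted p = 0.130; rho = 0.53, permutation p = 0.101, adjusted p = 0.503), where r was 0.46 without naïve mice 1 and 4. On deviations from the group means the nearest was Ncan with the interneuron list (r = −0.74, permutation p = 0.00997, adjusted p = 0.0748; rho = −0.59, permutation p = 0.0603, adjusted p = 0.351), where r was −0.19 without naïve mouse 5 and withdrawn mouse 3. No batch is given in the labels, so no value within batches could be computed.

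**Figure D4:**
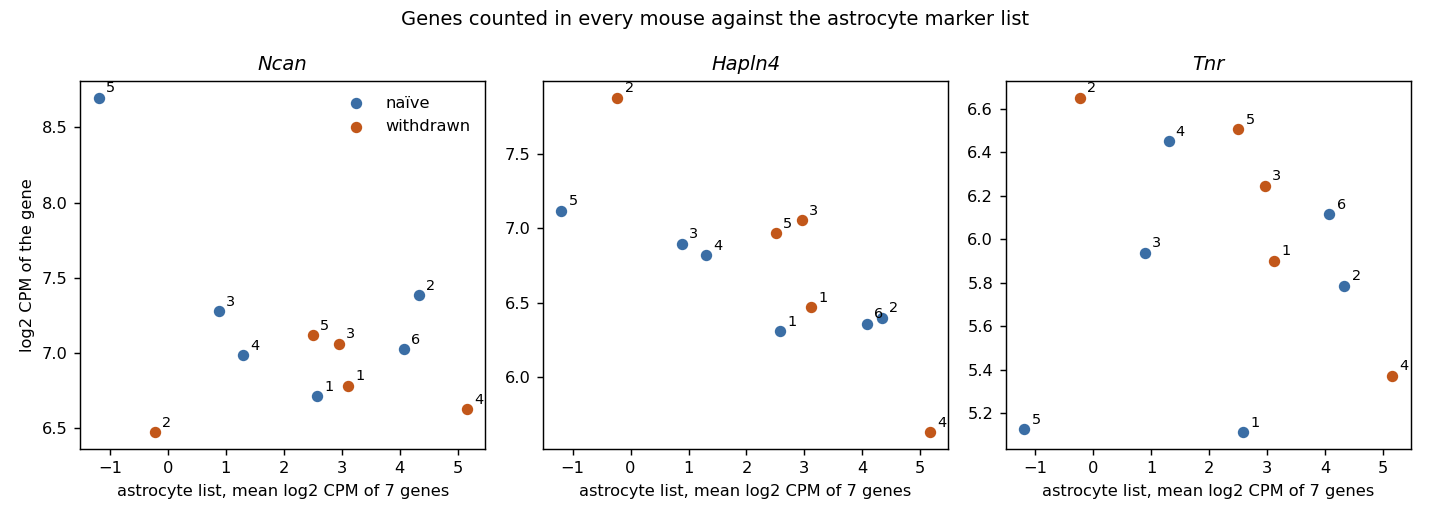
log2 CPM of Ncan, Hapln4 and Tnr in each mouse (vertical axes) against the mean log2 CPM of 7 astrocyte marker genes (horizontal axes), blue for naïve and orange for withdrawn mice with the mouse number beside each point. Hapln4 falls along the axis (r = −0.80), while Ncan is set apart by naïve mouse 5 and Tnr shows no clear slope.

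Among 11833 tested genes with a mean of at least 5 CPM, those whose deviations from the group means followed each of the 3 genes most closely over the 11 mice were Cdc23 (r = 0.95, rho = 0.91) and Psmd12 (r = 0.95, rho = 0.85) for Ncan, Faim2 (r = 0.96, rho = 0.95) and Cib2 (r = 0.96, rho = 0.85) for Hapln4, and Herc3 (r = 0.96, rho = 0.95) and Smad3 (r = 0.95, rho = 0.92) for Tnr. Without the 2 mice farthest from the median, r fell to 0.78 and 0.77 for the genes of Ncan and was between 0.87 and 0.93 for those of Hapln4 and Tnr. They were picked as the highest of many, the points share their libraries and depth, and no test is attached to them.

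The genes that modify, cut or bind the nets were read from 4 lists, and edgeR called none of the 55 that passed the low-count filter, of 65. Of 14 other net and matrix components, 12 were tested, 7 above and 5 below 0, with a median log2 fold change of 0.03. Sema3a, a guidance molecule held by net chondroitin sulfates, had 23.7 ± 8.08 CPM in naïve and 52.3 ± 19.1 CPM in withdrawn mice, and 4 of the 5 withdrawn mice lay above the naïve range (log2 fold change 1.14 ± 0.31, edgeR unadjusted p = 0.00237, adjusted p = 0.256; DESeq2 adjusted p = 0.0330). Sparcl1, the synaptogenic protein hevin, had 662 ± 202 and 475 ± 87.5 CPM (−0.48 ± 0.21, edgeR adjusted p = 0.646), and the pentraxin receptor Nptxr had 446 ± 162 and 458 ± 141 CPM.

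Of 22 genes of chondroitin sulfate synthesis, 18 were tested, 9 on each side of 0, with a median of 0.00252. Dse, the epimerase that turns chondroitin into dermatan sulfate, had 5.80 ± 4.79 CPM in naïve and 38.3 ± 25.1 CPM in withdrawn mice (2.73 ± 0.79, edgeR adjusted p = 0.291, DESeq2 adjusted p = 0.0229), with withdrawn mouse 2 at 1.34 CPM within the naïve range. Ust, a sulfotransferase of uronic acid, had 7.55 ± 4.81 and 27.9 ± 30.7 CPM (1.88 ± 0.89, edgeR adjusted p = 0.698). Chpf, which lengthens the chains, had 153 ± 36.4 and 149.8 ± 15.9 CPM, and B3gat3, which completes the linker on the core protein, 74.1 ± 13.0 and 72.3 ± 10.6 CPM. Chst14, the dermatan sulfotransferase, did not pass the filter and was called by DESeq2 (adjusted p = 0.0199), as were 1.57% of its genes in the direction of higher in withdrawn mice, with 0.1098 ± 0.269 and 7.39 ± 6.697 CPM.

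Of 19 proteases, inhibitors and hyaluronidases, 16 were tested, 13 above and 3 below 0, with a median of 0.56, beside 51.8% above 0 over all tested genes. An unadjusted p under 0.05 was found in edgeR for 3 of the 16, each higher in withdrawn mice, a direction and threshold that 5% of all tested genes met. Adamts1, a protease that cuts aggrecan and versican, had 5.45 ± 3.53 CPM in naïve and 19.8 ± 7.85 CPM in withdrawn mice, and every withdrawn mouse, at 11.6 CPM or more, lay above every naïve mouse, at 10.2 CPM or less, a separation that 0.69% of all tested genes showed in that direction. Its log2 fold change was 1.85 ± 0.55 (edgeR unadjusted p = 0.00457, adjusted p = 0.311; DESeq2 adjusted p = 0.0304). Adamts9, a related protease, had 1.40 ± 1.74 and 9.30 ± 7.01 CPM (2.71 ± 1.01, edgeR adjusted p = 0.5003, DESeq2 adjusted p = 0.0924) and was named after its values were seen. Timp1, an inhibitor of metalloproteinases, was between 0.107 and 1.69 CPM in naïve mice and between 12.7 and 17.5 CPM in 4 withdrawn mice, with 0 counts in withdrawn mouse 2 (4.35 ± 1.08, edgeR adjusted p = 0.194, DESeq2 adjusted p = 0.000684). Timp2 and Timp3, the inhibitors with the highest levels, had 443 ± 64.0 and 552 ± 140 CPM and 51.7 ± 44.6 and 60.9 ± 44.9 CPM.

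Fibroblast markers were summed beside these genes, without a test of their relation. The 8 markers summed to between 0.0677 and 73.1 CPM in naïve mice and to 1318, 18.4, 672, 927 and 225 CPM in withdrawn mice 1 to 5. Of the 6 that were tested, 6 were above 0 in log2 fold change and 5 had an unadjusted p under 0.05, beside 51.8% and 7.22% of all tested genes. Lum and Igf2 did not pass the low-count filter, and their means were lower in withdrawn mice. Lum had 1.36 CPM in naïve and 0.910 CPM in withdrawn mice, and Igf2 had 0.468 and 0.0916 CPM. None of the tested markers was called by edgeR, and DESeq2 called Col1a1 (adjusted p = 0.0107), Dcn (0.00891) and Ogn (0.0247). Each was higher in withdrawn mice, a direction in which DESeq2 called 1.57% of the 21849 genes with an adjusted p. Withdrawn mouse 2, low in the sum of these markers, was also the lowest withdrawn mouse for Dse and Timp1. Its value for Adamts1 was 14.3 CPM, above every naïve mouse. For the marker Dcn too, every withdrawn mouse, at 5.26 CPM or more, lay above every naïve mouse, at 5.22 CPM or less. Such a separation was shown by 0.69% of all tested genes in that direction. Without withdrawn mouse 2, edgeR called Dse (log2 fold change 3.04, adjusted p = 0.0262) and Timp1 (4.65, adjusted p = 0.00834), among 193 genes called of 18170 tested. Without naïve mouse 5 as well, it called Dse (2.82), Timp1 (4.51) and Chst14 (5.90), among 310 called of 17803. The part of fibroblasts in these values was not tested.

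Of 10 receptors for hyaluronan and chondroitin sulfate, 9 were tested, 4 above and 5 below 0, with a median of −0.12, and 1, Rtn4r, had an unadjusted p under 0.05 in edgeR and was lower in withdrawn mice, as were 2.22% of all tested genes. The receptor phosphatases Ptprs and Ptprd, which bind chondroitin sulfate at the neuronal surface, had the highest levels, 589 ± 115 and 625.4 ± 114 CPM for Ptprs and 291 ± 74.0 and 269 ± 61.9 CPM for Ptprd in naïve and withdrawn mice. Rtn4r, the Nogo receptor, had 169 ± 44.8 and 114 ± 42.7 CPM (−0.57 ± 0.26, edgeR unadjusted p = 0.0463, adjusted p = 0.685), and its relative Rtn4rl1 154 ± 35.7 and 118 ± 37.4 CPM (−0.38 ± 0.23, edgeR adjusted p = 0.807).

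**Figure D5:**
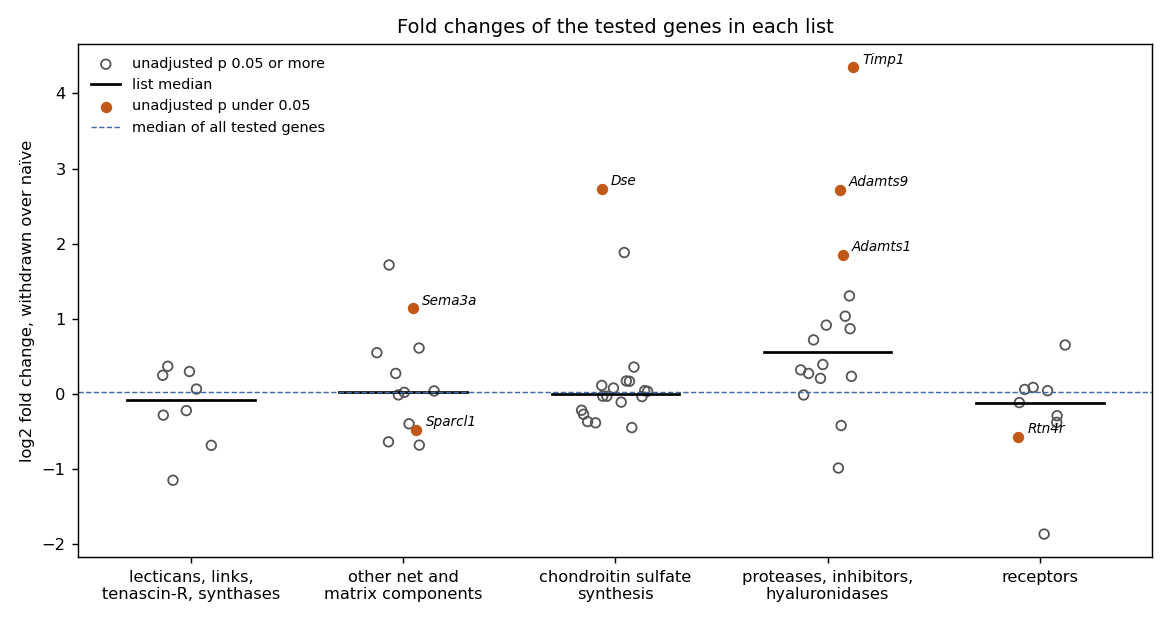
log2 fold change, withdrawn over naïve, of each tested gene (circles) among the lecticans, link proteins and tenascin-R and in the 4 related lists, with the list median (black bar), the median of all tested genes (dashed line) and genes with an unadjusted p under 0.05 in edgeR filled and named. The lecticans, link proteins and tenascin-R hold no filled circle and lie between −1.15 and 0.37, while the proteases and inhibitors reach 4.35 in Timp1.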

How the data were processed

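RNA was sequenced from sorted mPFC CRF1+ cells of 11 male CRF1:GFP mice, 6 naïve and 5 withdrawn, grouped by the treatment in the sample labels. Per the study's methods, adapters were removed by cutadapt 1.18, STAR 2.5.2a aligned reads to the GRCm38 assembly, and HTSeq 0.11.0 counted them over genes of Ensembl release 91. The strand setting is not given in the sources used here. The values the authors deposited are raw counts per Ensembl gene, not normalized or pooled. Symbols, positions and merged exon lengths came from GENCODE M21 on GRCm38, where 53274 of 53465 identifiers have a symbol, and promoter sequences from RefSeq (GRCm38.p6), with entries for 7 of the 10 genes.

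Withdrawn mice were compared with naïve mice in edgeR 4.0.16 (R 4.3.3) with TMM, filterByExpr by group (minimum count 10, total 15) and the quasi-likelihood test, adjusted over all tested genes by the method of Benjamini and Hochberg. The standard error is the size of the log2 fold change over the square root of F. Single values were compared by two-sided exact permutation tests over the 462 splits of the mice, whose smallest possible p is 0.00216, on log2 CPM with a prior count of 2. Correlations across mice used 100000 permutations, adjusted over 15 pairs. No p was adjusted over the 10 genes alone. The alternatives were DESeq2 1.42.0, limma voom 3.58.1 with quality weights, other scalings and filters, a replicate block, and mice left out. The fit without naïve mouse 5 and withdrawn mouse 2 together was added after seeing the data. The test was checked on simulated data with large set changes, and its power for the genes described here was not examined.

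The 10 genes, the related lists and the marker lists were chosen with earlier results of these data known. The genes named beside the 10 were Crhr1, Slc17a7, Gad2, in each related list the 2 with the smallest unadjusted p and the 2 with the highest mean CPM, and the 2 genes most like each gene counted in every mouse. Hapln3, Has1, Pvalb, Ptgdr, Adamts9, Chst14 and the partners on the other strand were named beside this rule. So were Sst, Vip, Lhx6, Gja1, Gjb6, Aqp4, Gfap, Slc1a3, Aldh1l1, Col1a1, Dcn, Ogn, Lum and Igf2. They belong to marker lists that were planned as counts and summed levels only. The 95% intervals come from the fit over mice and include the spread between them, while the floor of 3 counts covers counting error only. Same-numbered mice of the 2 groups are different animals, and pairs of libraries differed by more than sampling noise (chi-square per degree of freedom of at least 29.3 within groups).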

Additional observations from a re-analysis of the deposited data

Results flagged for a closer look

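Of 20 sets of values, 10 genes in each of 2 groups, 1 held a mouse far from the rest of its group, and chance alone flags about 1 in 20. In naïve mouse 5, Ncan stood at a log2 CPM of 8.70, which is 415 CPM from 6129 counts, and the next naïve mouse, number 2, stood at 7.38 (167 CPM). The gap was 0.662 of the range of the 6 naïve mice. The same library had the fewest genes with a count (15585), the smallest share of reads outside annotated genes (5.77%), 6 of the 10 genes at 0 counts and no count for 7 of 7 oligodendrocyte precursor, 7 of 8 fibroblast and 5 of 7 astrocyte markers. The part of these features in its Ncan level was not tested.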

How the results depend on the processing

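None of the 10 genes was called under any of the 21 alternatives, most of which did not test all of them. Tested were 10 without a low-count filter, 3 with at least 10 counts in every mouse and 6 to 8 with each mouse left out. A gene that was not tested could not be called. Over all genes, the number called, 1 in the comparison as reported, was 362 with DESeq2, 137 without a low-count filter, 30 among genes with at least 10 counts in every mouse, 0 with a replicate block, 0 without the 3 mice with conflicting labels, 310 without naïve mouse 5 and withdrawn mouse 2 together, and between 0 and 193 with each mouse left out, 193 being without withdrawn mouse 2. The 362 were 1.66% of the 21849 genes to which DESeq2 gave an adjusted p. Among the related lists, 0 genes were called as reported, 5 with DESeq2 (Sema3a, Chst14, Dse, Adamts1 and Timp1), 3 without naïve mouse 5 and withdrawn mouse 2 together, and 0 to 2 with each mouse left out. Of the lecticans, link proteins and tenascin-R, 4 of 8 were above 0 as reported and 2 of 3 when counts were required in every mouse. With each mouse left out, 2 to 5 were above 0, of the 6 to 8 that were tested. The number of the 10 genes with an exact permutation p under 0.05 was 0 as reported, 1 (Bcan) without the 3 mice with conflicting labels, and 0 to 1 with each mouse left out. Without the 3 mice the p of Bcan was the smallest that the mice left can give. The number of pairs of gene and marker list that passed was 1 as reported, 0 with a prior count of 0.5 and 0 without the 3 mice.

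Ncan, Bcan and Tnr kept their sign in every alternative that tested them. Acan, Vcan, Hapln1, Hapln2 and Hapln4 did not. With the replicate block the log2 fold change was −1.27 for Vcan, 1.65 for Hapln1 and 0.37 for Hapln2, and with voom it was −1.36 for Acan, −3.16 for Vcan and 1.76 for Hapln2. Vcan was −0.040 without a low-count filter and −2.38 without the 3 mice, and Acan −0.71 without naïve mouse 5 and withdrawn mouse 2 together. With a mouse left out, Acan ranged from −0.46 to 0.57 over the 9 fits in which it passed the filter, Vcan from −3.35 to 0.37 over 7, and, over 11, Hapln1 from −0.81 to 1.45, Hapln2 from −0.53 to 0.96 and Hapln4 from −0.057 to 0.51. In log2 CPM, the difference without the 3 mice was −0.33 for Hapln1 (0.48 with all mice) and −0.48 for Hapln2 (0.61 with all mice), and with each mouse left out it ranged from −0.032 to 1.04 for Acan, −0.079 to 1.30 for Hapln1 and −0.12 to 0.44 for Hapln4. The cause was not tested. Same-numbered mice share only a number: the correlation of their deviations ran from −0.20 to 0.18 over the 5 pairs.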

Other observations

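Withdrawn mouse 4 had a count for each of the 10 genes and was the highest withdrawn mouse for Bcan, Vcan, Hapln1 and Hapln2, and it was the lowest of all 11 mice for Hapln4 (49.3 CPM), Crhr1 (42.2 CPM) and Slc17a7 (738 CPM). It had the lowest depth, with 7351567 counts on genes, and the largest share of reads outside annotated genes (48.1%). Naïve mouse 4 and withdrawn mouse 1 were each the highest of their group for both Has2 and Has3. Hapln3, the link protein gene beside Acan, was highest in withdrawn mouse 4 (11.3 CPM, 92 counts) and had no count in 4 of the 11 mice.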
